A study of Mus musculus with 6 samples.

Results

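The spliceosome genes described here are the genes that the deposited mouse table annotates to the KEGG spliceosome pathway and whose listed transcript types include protein_coding, 104 of the 33971 genes in the table. Their mRNA was measured by poly(A)-selected RNA sequencing of articular cartilage, the tissue that covers the ends of bones in a joint, in 3 libraries from mice aged 2 months and 3 libraries from mice aged 18 months, all of the WT (wildtype) genotype and with no treatment named. The comparison asks how cartilage expression differs between young and aged animals. The study's methods call its samples independent in a general statement on all experiments, while the labels do not say which animals, or whether 1 animal or a pool, gave each library, so the p-values given here measure the spread between these samples.

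The spliceosome removes introns from pre-mRNA. The U1 and U2 small nuclear ribonucleoproteins (snRNPs) recognise the 5′ splice site and the branch site, the U4/U6 and U5 tri-snRNP then joins, and the Prp19 complex and RNA helicases remodel the assembly so that it can cut and join the transcript. The Sm proteins form a ring on the U1, U2, U4 and U5 RNAs and the LSm proteins form a similar ring on U6, whereas SR proteins and hnRNP proteins bind the pre-mRNA itself and influence which splice sites are used.

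Libraries of the 2 ages also differed in depth, in markers of other cells and in sex-linked transcripts. Total counts were 48171507 to 51683577 per library at 2 months and 55201357 to 59085179 at 18 months. Chondrocyte markers were present at both ages but fell, 12 of 12 tested, from 3.68 to 6.24% of counts at 2 months to 0.0584 to 0.143% at 18 months. Neutrophil markers took 0.00128, 0.374 and 0.00579% of counts in 2-month replicates 1, 2 and 3 against 4.2 to 4.51% at 18 months, and erythroid markers 0.0247 to 0.658% against 2.69 to 3.56%. None of the 12 neutrophil markers and 3 of 9 erythroid markers passed an adjusted p of 0.05, and 2-month replicate 2 stood apart from the other young libraries in both lists. Proliferation markers took 0.00895, 0.0943 and 0.0138% of counts in the 3 young libraries and 0.326 to 0.341% in the aged ones, and 10 of 12 rose. B lymphocyte markers took 0.00105, 0.033 and 0.00148% in 2-month replicates 1, 2 and 3 against 0.0202 to 0.0233%. Osteoblast and osteocyte markers took 0.505, 1.75 and 0.585% against 0.34 to 0.359% (3 of 10 fell). Skeletal muscle markers took 0.00122 to 0.00746% against 0.000697 to 0.000888% (5 of 9 fell). In each of these lists 2-month replicate 2 was the highest young library. Among all genes tested 23.4% rose and 27.9% fell, so 3 of 10 is near the share of all genes. Xist, a transcript of the inactive X chromosome, had 88239 to 102417 counts at 2 months and 11 to 30 at 18 months, whereas the Y-linked Ddx3y had 0 to 10 and 4333 to 4839, although the study's methods describe male mice. Sex and age therefore cannot be told apart in these libraries, and in bulk tissue a change in the proportion of a cell type and a change in RNA per cell cannot be told apart. The part of cell composition in the results was not tested.

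Most spliceosome genes were higher in aged cartilage. All 104 passed the filter on low counts. By the quasi-likelihood test of edgeR, with p-values adjusted over 20397 genes after Benjamini and Hochberg, 65 rose and 3 fell at an adjusted p below 0.05, and 36 were not called. Among all genes tested, 23.4% rose and 27.9% fell. When only genes with a mean of at least 1 FPKM entered the test, 54 members rose and 6 fell, where 26.6% and 32.4% of the genes did. With a log2 fold change beyond 1 required as well, 19 spliceosome genes rose and 2 fell, against 14.9% and 21.3% of all genes. The FPKM (fragments per kilobase of transcript, scaled to the mapped fragments of the library) of 76 genes was higher in every 18-month library than in any 2-month library, that of 7 was lower, and that of 21 overlapped, where 35.6% and 32.8% of all genes separated upward and downward. The median log2 fold change was 0.51 for the spliceosome genes and −0.02 for all genes tested, and 86 of the 104 lay above 0. The count of 65 became 42 without 2-month replicate 3, where 14.4% of all genes rose, and 69 without 2-month replicate 2, where 32% did. 2-month replicate 2 was the young library with the higher neutrophil and erythroid marker shares. The count also depended on scaling. On log2(TPM + 0.1) values tested with limma, 24 members rose and 16 fell, where 18.2% and 35.3% of all genes did. The median of all genes moved to −0.33 on that scale. After quantile normalisation 43 members rose and 13 fell, where 24.8% and 29.4% of all genes did. The median of all genes was then −0.10. Over all scalings, filters and left-out libraries the median of the spliceosome genes stayed 0.40 to 0.61 above that of all genes on the log2 scale.

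**Figure D1:**
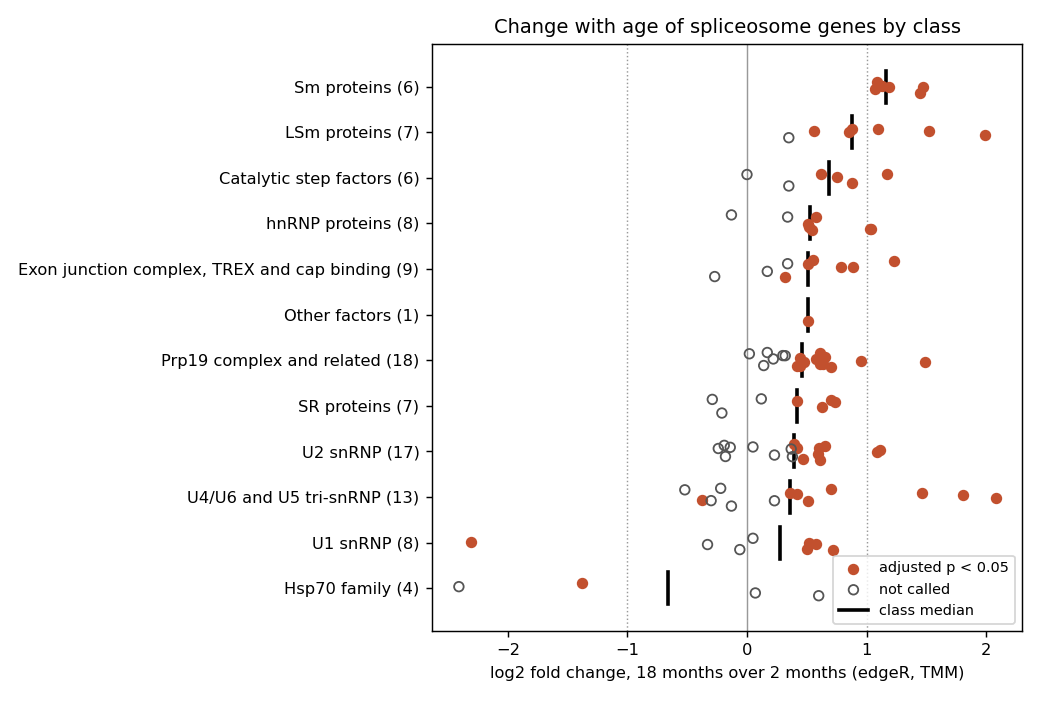
Log2 fold change of each of the 104 spliceosome genes (x axis, 18 months over 2 months, edgeR with TMM scaling) by class (y axis, number of genes in parentheses). Filled points passed an adjusted p of 0.05, open points did not, and bars mark class medians. The Sm proteins lie between 1.07 and 1.47, whereas the U1 snRNP class reaches down to −2.31.

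The promoters of these genes were read for short motifs, as a description of the gene set. In RefSeq windows of 250 bases before the start site (mouse build GRCm38.p6), 79 of the 104 genes were matched, with 96 windows, and were set beside 15204 windows of tested protein-coding genes. The ETS motif CCGGAAG, read on both strands as all motifs here, was in 34.4% of spliceosome windows and 11.8% of all windows. The E2F motif GCGGGAA was in 15.6% against 6.33%, and the YY1 motif ATGGCGG in 6.25% against 3.27%. The CCAAT box (40.6% against 35%), the GC box GGGCGG (54.2% against 53.8%), TATAAA (8.33% against 7.37%) and the NRF1 motif GCATGCG (4.17% against 4.65%) were nearer to the share in all windows. Median GC content was 59.2% and 58.8%, with a median of 19 and 14 CpG dinucleotides per window. Of the 19 members that rose past a log2 fold change of 1, 14 were matched, with 16 windows. Of these windows 37.5% held the ETS motif, 25% E2F, 6.25% YY1, 56.2% a CCAAT box and 62.5% a GC box. A match is a description of the letters in the window, not of binding. Whether any motif goes with the change with age was not tested. The 3 stretches free of annotated exons shown here are those of Ppih and Lsm5 for the largest rises and of Hnrnpa1 as the most abundant gene with a log2 fold change above 1; each reads 5′ to 3′ on the strand of its gene, with motif matches of either strand in capitals. They lie at chr4:119320547-119320773 (minus strand), chr6:56704711-56704949 (minus strand) and chr15:103240147-103240396 (plus strand). The ETS and GC box matches of Ppih share a base, Lsm5 holds an ETS match, a CCAAT box and a GC box, and Hnrnpa1 holds 4 CCAAT boxes and 2 GC boxes.
Ppih: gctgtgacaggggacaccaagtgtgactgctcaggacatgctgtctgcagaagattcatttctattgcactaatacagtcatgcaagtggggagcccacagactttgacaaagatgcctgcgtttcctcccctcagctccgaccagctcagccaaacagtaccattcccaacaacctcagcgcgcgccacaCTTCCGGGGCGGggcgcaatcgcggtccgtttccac
Lsm5: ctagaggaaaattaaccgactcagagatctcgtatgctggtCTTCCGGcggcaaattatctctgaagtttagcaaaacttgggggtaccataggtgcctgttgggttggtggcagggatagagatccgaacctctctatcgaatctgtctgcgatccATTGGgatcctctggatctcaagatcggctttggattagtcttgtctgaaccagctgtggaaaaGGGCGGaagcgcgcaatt
Hnrnpa1: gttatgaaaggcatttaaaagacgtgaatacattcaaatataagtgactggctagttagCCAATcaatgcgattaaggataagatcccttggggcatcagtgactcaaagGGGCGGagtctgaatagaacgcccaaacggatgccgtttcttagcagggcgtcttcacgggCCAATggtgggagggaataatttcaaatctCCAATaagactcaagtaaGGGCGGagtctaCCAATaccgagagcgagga

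The 6 annotated Sm genes, core of 4 of the spliceosomal snRNPs, all rose, and all by more than a log2 fold change of 1. Of all genes, 23.4% rose and 14.9% rose past that limit. Together the 6 Sm genes took 0.0149, 0.0193 and 0.0151% of counts in the young libraries and 0.0406, 0.0387 and 0.041% in the aged ones. Snrpd1 measured 10.3, 13.1 and 9.69 FPKM at 2 months and 32.6, 31.4 and 32.2 FPKM at 18 months. The aged libraries lay close together and far above the highest young one, 2-month replicate 2, with a log2 fold change of 1.47 ± 0.11 (SE, n = 3 per age, adjusted p = 0.00095). Snrpe measured 11.1, 18.0 and 12.3 FPKM against 37.2, 36.9 and 43.9 FPKM, again without overlap and with 2-month replicate 2 the highest young library (log2 fold change 1.45 ± 0.18, adjusted p = 0.0025). Snrpb, the most abundant of the 6, went from 18.4, 23.9 and 18.7 FPKM to 46.4, 42.3 and 47.7 FPKM (1.09 ± 0.11, adjusted p = 0.0016). Snrpf, Snrpg and Snrpd3 rose by 1.19, 1.13 and 1.07 on the log2 scale. The class median was 1.16, 1.22 without 2-month replicate 2, and 0.80 on the TPM scale, where the LSm class described next had 0.52. Snrpd2, the remaining subunit of the ring, carries no spliceosome annotation in the table and was looked up after the values of the class were seen. It rose by 0.58 ± 0.12 (adjusted p = 0.0098). Snrpn, an Sm-type gene that also lacks the annotation, went the other way (−4.48 ± 0.92, adjusted p = 0.01) and is described further on.

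In the LSm ring of the U6 snRNP the ages separated as well. Each of the 7 genes had every aged library above every young one, against 35.6% of all genes. Of the 7, 6 rose, 3 of them by a log2 fold change above 1, against 23.4% and 14.9% of all genes. The class median was 0.88. Lsm5 measured 7.75, 2.76 and 6.38 FPKM at 2 months and 23.6, 27.6 and 21.1 FPKM at 18 months. Here 2-month replicate 2 was the lowest library, and the log2 fold change of 1.99 ± 0.43 (adjusted p = 0.012) became 1.67 without it. Lsm2 went from 1.51, 2.81 and 1.57 FPKM to 6.7, 5.46 and 5.6 FPKM, with no overlap between ages (1.52 ± 0.25, adjusted p = 0.0049). Lsm3 rose by 1.10 ± 0.11. Lsm4, the most abundant LSm gene, went from 19.3, 19.3 and 17.0 FPKM to 36.8, 34.5 and 36.4 FPKM (0.88 ± 0.10, adjusted p = 0.002). Lsm7 was the uncalled member, at 7.27, 7.17 and 7.97 FPKM against 10.3, 8.96 and 10.99 FPKM (0.35 ± 0.15, adjusted p = 0.095).

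**Figure D2:**
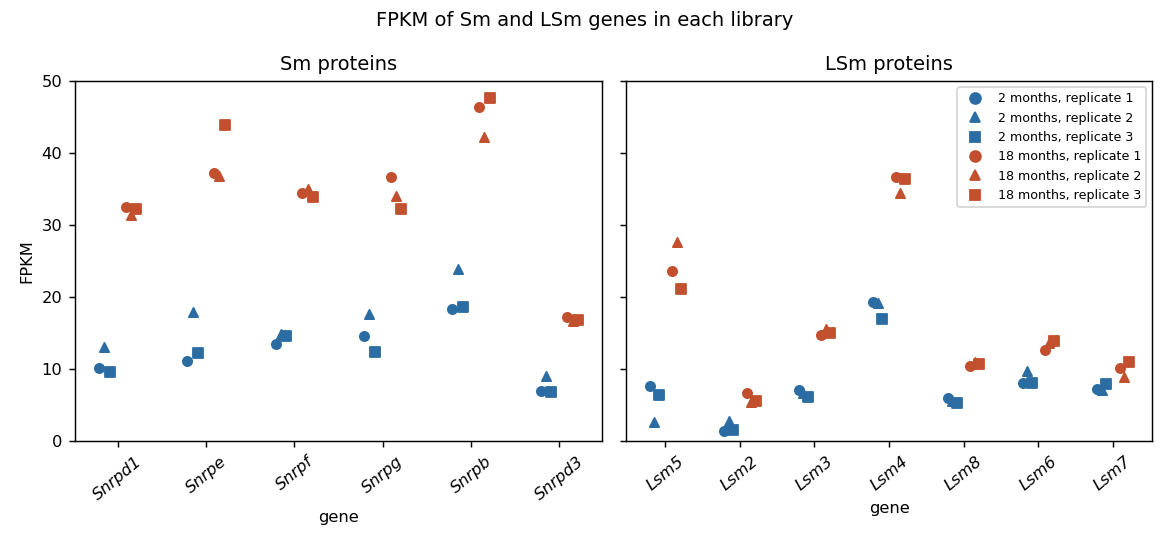
FPKM (y axis) of the 6 Sm genes (left) and 7 LSm genes (right) in each library; blue marks 2 months, orange 18 months, and the marker shape gives the replicate. No gene overlaps between ages, and 2-month replicate 2 is the highest young library for Snrpe at 18.0 FPKM but the lowest for Lsm5 at 2.76 FPKM.

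In the U4/U6 and U5 tri-snRNP, 7 of 13 genes rose and 1 fell, against 23.4% and 27.9% of all genes. The class had a range from −0.52 to 2.08 and a median log2 fold change of 0.36. That median was 0.01 on the TPM scale and 0.10 after quantile normalisation. Ppih, a cyclophilin bound to the U4/U6 snRNP, had the largest rise of all 104 genes from a low level: 0.909, 1.48 and 1.11 FPKM in young cartilage and 5.54, 5.2 and 4.95 FPKM in aged cartilage. The lowest aged library lay well above the highest young one, a 4.23-fold difference (log2 2.08 ± 0.22, adjusted p = 0.0017). Usp39, needed to bring the tri-snRNP to the spliceosome, measured 5.25, 9.46 and 5.79 FPKM against 25.1, 24.7 and 25.4 FPKM (1.81 ± 0.21, adjusted p = 0.0019). Snrnp40, a U5 subunit, went from 3.72, 5.61 and 3.53 FPKM to 12.7, 11.97 and 12.4 FPKM (1.46 ± 0.17). In all of these genes 2-month replicate 2 was the highest young library. The large U5 GTPase Eftud2 rose by 0.70 ± 0.11, and Prpf31 and Prpf4, which belong to the U4/U6 particle, by 0.51 and 0.42. The most abundant member, Snu13, which binds U4 RNA, went from 18.0, 16.1 and 16.0 FPKM to 24.2, 21.04 and 22.9 FPKM (0.36 ± 0.11, adjusted p = 0.04), a call that was lost without 2-month replicate 3 or without any one of the aged libraries (adjusted p = 0.074 to 0.12). Prpf6, which bridges U5 and U4/U6, was the member that fell, from 13.9, 14.4 and 14.7 FPKM to 12.8, 10.7 and 11.5 FPKM. Its ages did not overlap, but the fall of 0.38 ± 0.10 on the log2 scale (adjusted p = 0.025) was no longer called without 2-month replicate 1 or 3 or 18-month replicate 2 or 3 (adjusted p = 0.065 to 0.1). Snrnp27, a further tri-snRNP protein, measured 20.3, 15.1 and 19.3 FPKM against 14.8, 13.8 and 11.9 FPKM (−0.52 ± 0.18, adjusted p = 0.055).

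The U1 snRNP and its partners were divided. Of 8 genes 4 rose and 1 fell, against 23.4% and 27.9% of all genes. The class median of 0.28 turned to −0.08 on the TPM scale and was 0.04 after quantile normalisation. Snrpa and Snrpc, U1-specific proteins, rose by 0.52 and 0.58. The third U1-specific protein, Snrnp70, measured 31.6, 37.1 and 36.1 FPKM against 32.8, 27.4 and 27.9 FPKM, with overlapping ages (−0.33 ± 0.12, adjusted p = 0.066). The most abundant member, the RNA helicase Ddx5, overlapped as well, at 134.1, 179.5 and 156.4 FPKM against 182.7, 165.4 and 165.0 FPKM (0.05 ± 0.16). Prpf40b, a U1-associated protein, had the largest called fall of all 104 genes, from 9.22, 7.89 and 9.92 FPKM to 2.68, 1.68 and 1.43 FPKM, without overlap and to 0.202 of the young level (log2 −2.31 ± 0.27, adjusted p = 0.002). Without either age's replicates in turn, its log2 fold change stayed between −2.58 and −2.13.

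In the U2 snRNP class, which recognises the branch site, 9 of 17 genes rose and none fell, against 23.4% and 27.9% of all genes. The class median of 0.39 became 0.03 on the TPM scale and 0.19 after quantile normalisation. The largest rises of the class were in Sf3b6 and Phf5a, small subunits of the SF3B complex, whereas the SF3B subunit Sf3b5 rose by 0.42 ± 0.14 (adjusted p = 0.046). Sf3b6, which contacts the branch region, went from 10.6, 10.8 and 9.32 FPKM to 21.7, 23.7 and 24.7 FPKM (1.11 ± 0.11, adjusted p = 0.0015). Phf5a, another SF3B subunit, went from 9.52, 11.3 and 9.29 FPKM to 22.5, 21.5 and 23.5 FPKM (1.09 ± 0.10, adjusted p = 0.0013). Sf3b1, the largest SF3B subunit and the most abundant gene of the class, overlapped between ages at 39.8, 40.7 and 42.5 FPKM against 39.8, 38.4 and 36.0 FPKM (−0.19 ± 0.13, adjusted p = 0.25). On the TPM and quantile scales the same gene was called lower, at −0.54 and −0.45. Snrpb2, an RNA-binding U2 subunit, and U2af2, which reads the polypyrimidine tract, rose by 0.65 and 0.47.

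Against 23.4% of all genes that rose and 27.9% that fell, 12 of 18 Prp19 complex and related genes rose and none fell. Their median was 0.46. Of the 6 catalytic step factors, which act later in the cycle, 4 rose and none fell, with a median of 0.69. On the TPM scale these medians were 0.10 and 0.33, and after quantile normalisation 0.28 and 0.45. The cyclophilin Ppil1 was the one Prp19-class gene past a log2 fold change of 1, at 4.12, 6.03 and 4.92 FPKM against 16.0, 15.3 and 13.2 FPKM (1.49 ± 0.15, adjusted p = 0.0015). The most abundant of its class, Cwc15, had every aged library higher but was not called, at 27.4, 27.9 and 24.6 FPKM against 40.6, 32.9 and 31.6 FPKM (0.32 ± 0.12, adjusted p = 0.068), whereas DESeq2, median-of-ratios or total-count scaling in edgeR and limma on both FPKM scales called it higher (adjusted p = 0.033 to 0.049), and on the TPM scale it was −0.05. Among the catalytic factors, Cdc40 (the Prp17 homologue, a second-step factor) went from 2.43, 3.74 and 3.03 FPKM to 6.36, 7.46 and 7.87 FPKM (1.17 ± 0.17, adjusted p = 0.0037). The helicases Dhx38 and Dhx16 rose by 0.88 and 0.62. Zmat2, the most abundant in this class, had a log2 fold change of 0.00 ± 0.13, with 30.02, 24.6 and 26 FPKM at 2 months and 29.5, 28.3 and 27.8 FPKM at 18 months. Rp9, which was placed in no class, went from 8.67, 6.95 and 7.73 FPKM to 11.6, 12.3 and 11.4 FPKM (0.51 ± 0.14, adjusted p = 0.028), a call lost without 2-month replicate 3 or without any one of the aged libraries (adjusted p = 0.053 to 0.09).

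Among the annotated SR proteins, which bind exonic enhancers, 4 of 7 rose and none fell, where 23.4% and 27.9% of all genes did. The class median was 0.42, against 0.06 on the TPM scale and 0.15 after quantile normalisation. Srsf3 went from 26.4, 30.4 and 26.1 FPKM to 48.5, 49.0 and 48.1 FPKM (0.74 ± 0.11, adjusted p = 0.0035), and Srsf2, Tra2b and Srsf4 rose by 0.70, 0.63 and 0.42. The most abundant SR gene went the other way in every library: Srsf5 measured 139.5, 129.1 and 139.8 FPKM at 2 months and 106.3, 121.6 and 125.1 FPKM at 18 months. With TMM scaling this was not called (−0.29 ± 0.15, adjusted p = 0.16), whereas on the TPM and quantile scales it was called lower, at −0.65 and −0.58. Srsf6 overlapped between ages at 52.4, 72.6 and 59.4 FPKM against 56.5, 55.9 and 54.8 FPKM. Outside the annotation, Srsf1 was called higher (0.74), Srsf11 and the low-level Srsf12 were called lower (−0.88 and −3.96), and Srsf7, Srsf9 and Tra2a were not called. Of the 7 SR genes 6 are listed with a transcript type marked for nonsense-mediated decay, as are 7 of the 8 U1 genes, against 34.6% of the 104 spliceosome genes and 21.4% of 15220 tested protein-coding genes. Retained-intron transcripts are listed for 73.1% of spliceosome genes and 53.8% of protein-coding genes. The FPKM of a gene pools its transcripts, so the level of such forms was not measured here.

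Of the 8 annotated hnRNP genes 6 rose and none fell, against 23.4% and 27.9% of all genes. The class median of 0.53 became 0.17 on the TPM scale and 0.24 after quantile normalisation. Hnrnpa1, which represses splice sites and is the fourth most abundant of the 104 genes by FPKM, measured 50.7, 84.2 and 60.2 FPKM in young and 141.9, 139.2 and 136.4 FPKM in aged cartilage. The aged libraries were tightly grouped and 2-month replicate 2 was the highest young one (1.03 ± 0.18, adjusted p = 0.006). Pcbp1, a poly(C)-binding protein, rose by 0.58 ± 0.11, and Hnrnpm, Hnrnpk and Hnrnpc by 0.54, 0.52 and 0.51. Rbmxl1 went from 15.8, 21.6 and 14.9 FPKM to 41.7, 34.4 and 37.0 FPKM (1.04 ± 0.14, adjusted p = 0.003). Its X-linked relative Rbmx overlapped between ages, with 13.7, 16.1 and 15.7 FPKM against 14.5, 14.2 and 15.1 FPKM (−0.13 ± 0.10, adjusted p = 0.29), and was called lower on the TPM and quantile scales, at −0.49 and −0.38. Rbmxl1 is a retrocopy of Rbmx, and Hnrnpa1 has many processed copies, so reads that fit more than one place make these values uncertain.

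In the group of the exon junction, TREX export and cap-binding complexes, 6 of 9 genes rose and none fell. Of all genes, 23.4% rose and 27.9% fell. The group median of 0.51 became 0.16 on the TPM scale and 0.31 after quantile normalisation. Alyref, an mRNA export adaptor, went from 4.43, 6.43 and 5.92 FPKM to 16.9, 12.1 and 12.5 FPKM (1.23 ± 0.18, adjusted p = 0.0038). Its close relative Alyref2 measured 1.77, 2.04 and 1.6 FPKM against 2.67, 2.35 and 2.18 FPKM (0.34 ± 0.22, adjusted p = 0.25). The exon junction subunits Magoh and Magohb rose by 0.79 and 0.89, and Rbm8a by 0.55. The most abundant gene of the group, the helicase Ddx39b, went from 40.5, 45.3 and 40.9 FPKM to 59.2, 54.1 and 54.1 FPKM (0.32 ± 0.10, adjusted p = 0.034), a call kept without 2-month replicate 2 and lost without any other library (adjusted p = 0.055 to 0.12). Ncbp2, a cap-binding subunit, overlapped at 17.8, 21.2 and 19.0 FPKM against 22.4, 13.8 and 14.8 FPKM.

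The pathway annotation also holds 4 Hsp70 chaperones, whose values went apart. Hspa8, the constitutive member and the most abundant of all 104 genes, measured 131.4, 171.6 and 147.3 FPKM at 2 months and 338.2, 192.0 and 189.3 FPKM at 18 months. Every aged library was higher, but 18-month replicate 1 stood far above the others, and the log2 fold change of 0.60 ± 0.26 (adjusted p = 0.1) was 0.30 without it; DESeq2 called the gene higher (0.65, adjusted p = 0.043). Hspa2, best known from testis, fell from 4.86, 3.6 and 3.2 FPKM to 2.66, 1.15 and 0.958 FPKM (−1.38 ± 0.44, adjusted p = 0.042). It was decided by single libraries, since the call was lost without 2-month replicate 1 or 3 or 18-month replicate 2 or 3 (adjusted p = 0.08 to 0.13). The heat-inducible Hspa1b measured 3.04, 1.64 and 3.76 FPKM against 1.32, 0.215 and 0.185 FPKM, without overlap (−2.41 ± 0.87, adjusted p = 0.063). It was called lower without 18-month replicate 1, at −3.86 (adjusted p = 0.0076), without 2-month replicate 2, at −2.69 (adjusted p = 0.039), by DESeq2, at −2.37 (adjusted p = 0.0092), and by limma under all 4 scalings tried (adjusted p = 0.017 to 0.025). Hspa1b and Hspa1a are near-identical copies, so the division of reads between them is uncertain. Hspa1l, the fourth chaperone, stayed at a low level with overlapping ages (0.07 ± 0.39).

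Related genes were also compared by their ratio within a library, in which a scaling factor of the library cancels except for genes near the added 0.1 FPKM. The log2 ratio of Rbmxl1 to Rbmx (FPKM + 0.1) was 0.20, 0.43 and −0.08 in young and 1.52, 1.27 and 1.29 in aged cartilage, a difference of 1.18. The exact permutation test of 3 against 3 libraries gave p = 0.1, the smallest it allows, so no ratio here could pass 0.05. The ratio of Alyref2 to Alyref moved by −0.89 and those of Hspa2 and Hspa1b to Hspa8 by −1.98 and −3.09, each without overlap between ages. The ratio of Magohb to Magoh was alike at both ages, −3.23 ± 0.29 and −3.13 ± 0.27 (SD, n = 3), with overlapping libraries. Of the pairs that include a gene outside the annotation, Snrpn to Snrpb moved by −5.57, Hspa1a to Hspa8 by −2.84, Tra2a to Tra2b by −1.01 and U2af1l4 to U2af1 by −0.62, all without overlap, and Rbm8a2 to Rbm8a by −0.24 with overlap. In aged libraries Snrpn (0.881, 0.244 and 0.0706 FPKM) and Hspa1a (0.617, 0.242 and 0.234 FPKM) came near the added 0.1 FPKM. So did Hspa1b (1.32, 0.215 and 0.185 FPKM), and Rbm8a2 did at both ages. The sizes of their ratio differences depend partly on that constant. Hnrnpa1 to Hnrnpa3 differed by 1.80 but overlapped, because 2-month replicate 3 held 4.12 FPKM of Hnrnpa3 against 28.6 and 25.9 FPKM in the other young libraries.

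**Figure D3:**
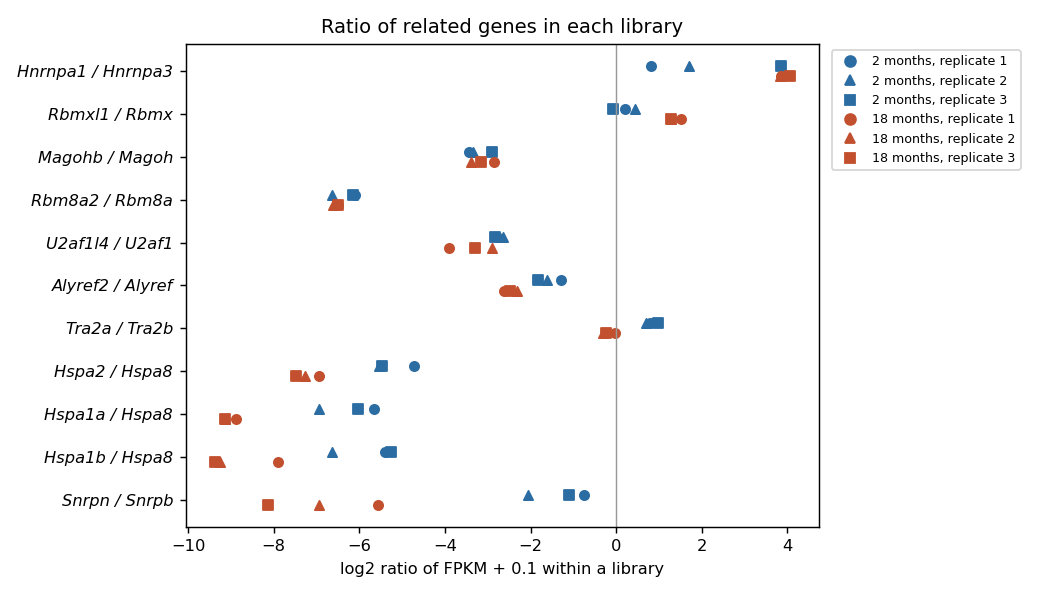
Log2 ratio of FPKM + 0.1 between related genes (x axis, pairs on the y axis) in each library; blue marks 2 months, orange 18 months, and the marker shape gives the replicate. The ratio of Rbmxl1 to Rbmx lies between −0.08 and 0.43 in young and between 1.27 and 1.52 in aged libraries, whereas that of Magohb to Magoh overlaps.

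The counts for splicing genes outside the annotation stand against 23.4% of all genes tested that rose and 27.9% that fell. A first set of 33 tested genes belongs to the same classes, carries no spliceosome annotation in the table and is in none of the lists below. Of these, 13 rose and 4 fell (Luc7l, Prpf39, Luc7l2 and Hspa1a), with a median of 0.18. Further class genes are counted in the lists below instead: Snrpn, Srsf11 and Srsf12, which fell, Hnrnpa2b1, which rose, and Prpf4b, which was not called. Of 10 genes of the minor spliceosome, which removes the rare U12-type introns, none rose and 1 fell, with a median of −0.09. That gene, Snrnp48, went from 5.45, 6.59 and 6.47 FPKM to 5.01, 4.6 and 4.54 FPKM (−0.46 ± 0.10, adjusted p = 0.013), a call lost without 2-month replicate 3 or 18-month replicate 2 or 3 (adjusted p = 0.055 to 0.062). A list of 21 further hnRNP and related genes, which also holds the SR genes Srsf11 and Srsf12 and the Sm-type gene Snrpn, had 11 that rose. The 4 that fell were Srsf11, Hnrnph3, Srsf12 and Snrpn. Snrpn, an imprinted Sm-type gene of neurons, fell from 10.8, 5.62 and 8.62 FPKM to 0.881, 0.244 and 0.0706 FPKM (−4.48 ± 0.92, adjusted p = 0.01).

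The same shares of all genes, 23.4% and 27.9%, are the background for the regulators of splicing below, and nothing particular to these short lists is read from their counts. Of 8 SR protein kinases Srpk1 rose and Clk4 and Clk1 fell. Clk1, which phosphorylates SR proteins in the nucleus, went from 58.1, 49.7 and 65.3 FPKM to 30.2, 33.8 and 33.2 FPKM (−0.92 ± 0.18, adjusted p = 0.0086). Of 22 tested tissue-restricted regulators 5 rose (Celf2, Mbnl3, Ptbp3, Celf1 and Khdrbs1) and 9 fell, with a median of −0.52. The largest of these changes was the fall of Celf4, from 1.15, 0.666 and 0.894 FPKM to 0.0432, 0.0903 and 0.0402 FPKM (−4.00 ± 0.47, adjusted p = 0.0021). In snRNP assembly, where the SMN complex loads Sm rings onto RNA, 5 of 16 genes rose (Smn1, Clns1a, Ddx20, Strap and Tgs1) and Coil fell. Smn1 itself went from 3.41, 3.82 and 4.42 FPKM to 8.43, 8.98 and 9.33 FPKM, without overlap (1.11 ± 0.15, adjusted p = 0.0032). Genes named here for list counts, beyond the gene with the largest called change in each list, were chosen after their values were seen.

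As a share of all counts, the 104 genes took 0.923, 1.09 and 0.986% in the young libraries and 1.45, 1.27 and 1.28% in the aged ones. The LSm genes alone took 0.0132 to 0.0141% and 0.0263 to 0.0267%. Levels varied little between libraries of an age, with a median coefficient of variation of 11.5% at 2 months and 8.52% at 18 months, against 17.5% and 11.1% for 13900 genes with a mean of at least 1 FPKM. The order of libraries was uneven: 2-month replicate 2 was the highest young library for 67 of the 104 genes (64.4%, against 55.7% of the 13900). It was so for 46 of the 65 that rose and for 17 of the 19 that rose past a log2 fold change of 1. The 55.7% covers genes of either direction, and no such share was taken over all genes that rose. 2-month replicate 2 also had the highest proliferation, neutrophil, erythroid and chondrocyte marker shares among the young libraries. Among aged libraries 18-month replicate 1 was the highest for 71 genes (68.3%, against 55.6%).

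**Figure D4:**
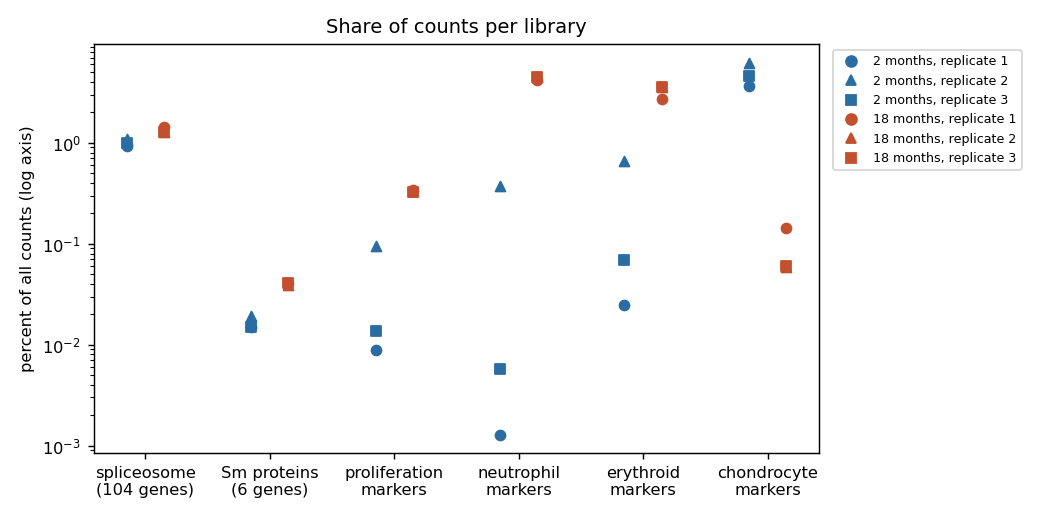
Percent of all counts (y axis, log scale) taken by the 104 spliceosome genes, the 6 Sm genes and 4 marker lists in each library; blue marks 2 months, orange 18 months, and the marker shape gives the replicate. Spliceosome genes took 0.923 to 1.09% and 1.27 to 1.45%, while proliferation markers took 0.00895 to 0.0943% and 0.326 to 0.341%.

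**Figure D5:**
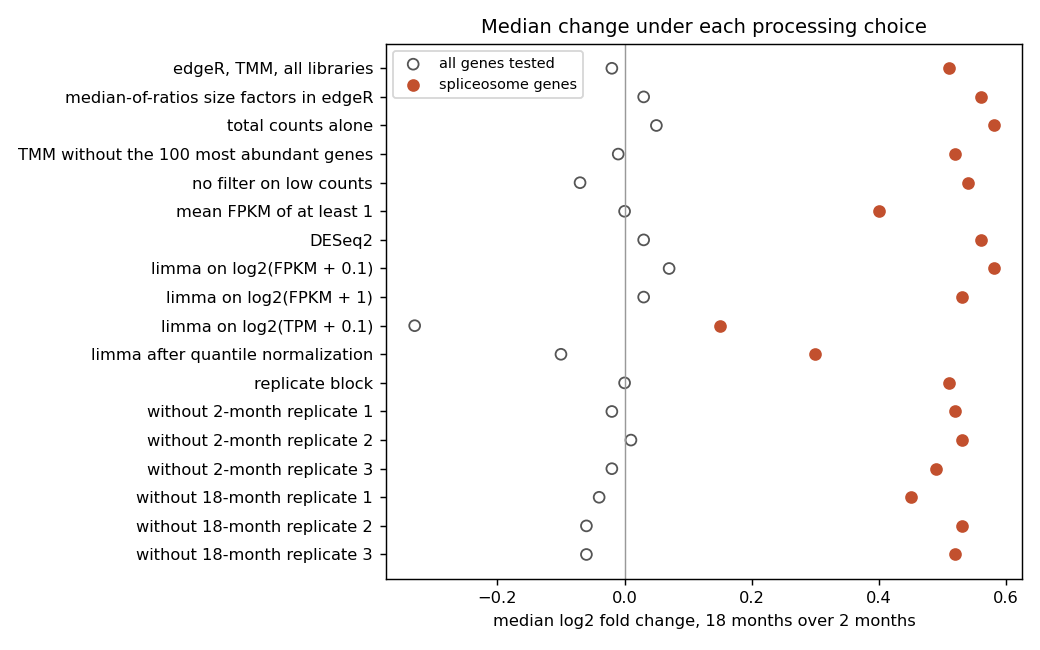
Median log2 fold change (x axis, 18 months over 2 months) of the spliceosome genes (filled) and of all genes tested (open) under each processing choice (y axis). The filled points move from 0.15 on the TPM scale to 0.58 and lie right of the open ones in every setting drawn.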

How the data were processed

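Gene-level values of 6 mouse articular cartilage libraries, 3 per age, were used as the authors deposited them. The deposited read counts and FPKM values per gene came from dUTP-stranded, poly(A)-selected paired-end libraries with molecular identifiers. The submitters' processing notes name cutadapt 1.9, HISAT2 2.0.4, UMI-tools, StringTie 1.3.4d, DESeq2 and edgeR, without their roles; the genome build and the counting mode are not given in the sources used here. Start, end and strand of 90 of the 104 members equal those in GENCODE M21 (GRCm38). Of the members, 39 overlap another gene in the table, and reads that fit several genes could have been split.

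Counts were tested with edgeR 4.0.16 (filterByExpr, TMM, quasi-likelihood test on age, Benjamini-Hochberg adjustment over 20397 genes, threshold 0.05) in R 4.3.3. SE is the log2 fold change over the square root of F. The members and gene lists were chosen with earlier results of these data known. Alternatives were other scalings and filters, DESeq2 1.42.0, limma 3.58.1 on log2(FPKM + 0.1), log2(FPKM + 1), log2(TPM + 0.1) and quantile-normalised values, a replicate block, leaving out each library, and, chosen after seeing the data, members with protein_coding as the only transcript type. Ratios used log2(FPKM + 0.1) and a two-sided exact permutation test. Named were the 5 largest called rises and falls, the most abundant gene of each class, members of the related pairs, members past a log2 fold change of 1, and the largest called change of each other list. Other genes named were chosen after their values were seen, and some members' own values are not reported here. The scripts were tested on simulated data. Depth limits precision only through counting error, and the spread between libraries was larger than that. Between libraries of the same age the median chi-square was 6.46 to 45.2 times its expected value.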

Additional observations from a re-analysis of the deposited data

How the results depend on the processing

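The member counts and the median moved most with scaling. On the TPM scale 24 members rose and 16 fell (8 rose past a log2 fold change of 1, median 0.15), against 18.2% and 35.3% of all genes. After quantile normalisation 43 rose and 13 fell (10 past the limit, median 0.30), against 24.8% and 29.4% of all genes. The 24 and 43 were all among the 65, and the median of all genes was −0.33 and −0.10. With protein_coding as the only transcript type, 5 of 10 members rose and 1 fell (3 and 1 past the limit, median 0.38). The shares of all genes were 23.4% and 27.9%. The 3 falls became 1 (1 past the limit) with total counts alone and with no filter, where 26% and 15.1% of all genes fell. They became 6 with a mean of at least 1 FPKM, where 32.4% of the genes fell. DESeq2 called 72 higher and 4 lower, against 30.1% and 29.6% of all genes. Leaving out 1 library at a time gave 42 to 69 rises and 1 to 5 falls, where 14.2 to 32% of all genes rose and 19.7 to 28.3% fell. The same fits gave 17 to 21 rises and 1 to 3 falls past the limit, medians of 0.45 to 0.53, and 11 classes with a median above 0.

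Directions reversed for values near 0. The U1 median was −0.08 on the TPM scale. Zmat2 (0.00) was −0.10 with a mean of at least 1 FPKM, −0.35 on the TPM scale, −0.27 after quantile normalisation, and −0.07 to 0.11 when single libraries were left out, below 0 without 2-month replicate 2. Ddx5 was −0.05, −0.30 and −0.24 under those 3 settings and −0.03 to 0.14 over single libraries left out, the lowest without 2-month replicate 1. Ddx39b, Cwc15 and Alyref2 were −0.03, −0.05 and −0.02 on the TPM scale. The ratio of Magohb to Magoh was −0.03 with a pseudocount of 1, and −0.04 to 0.26 over single libraries left out, below 0 without 2-month replicate 1 (−0.01) or 18-month replicate 1 (−0.04), and that of Rbm8a2 to Rbm8a was 0.23 with a pseudocount of 0.01. The cause was not tested. Of the single-gene values under alternatives, 702 kept direction and side of the threshold, 48 were no longer called and 19 were newly called.

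Same-numbered libraries did not deviate together (r = 0.08, 0.08 and −0.08), and libraries of different numbers had r between −0.11 and 0.11. With 3 libraries per age, this cannot decide whether the replicate numbers pair the samples, and the labels do not say. With the replicate block, 48 members rose and 2 fell, against 17.4% and 21.1% of all genes, and the median of the members was 0.51.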
